A study of Sus scrofa with 8 samples.

Results

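Cytokines, chemokines and interferons are the secreted signals by which cells call, activate and restrain cells of the immune system, and they were followed here together with their receptors in the testes of boars. A probe of the array was a member when the symbol of its gene began with CCL, CCR, CXCL, CXCR, IFN or TNF, or with IL and a digit. The symbol came from the pig RefSeq gene table through the accession printed on the array, or from the gene name the study gave in its table of probes that differed between diets. There were 81 such probes for 72 genes, out of 3064 probes with a gene name and 43603 probes in all. Of these, 74 probes for 66 genes were named through RefSeq. The other 7 probes, for 6 genes, were named only through the study's table and so had been chosen on the diet contrast itself.

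Chemokines form gradients that guide leukocytes and, in the testis, also germ cells, through receptors on the cell surface. Interferons and most interleukins act through receptors of 2 or more different chains, and TNF ligands act as trimers on receptors that cluster in threes; signalling by JAK and STAT proteins or by NF-kappa B follows. The testis is known as an immune-privileged organ, in which macrophages of the interstitium and the somatic cells of the tubules keep responses to the germ cells low, and several of these signals also take part in normal spermatogenesis.

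The samples were testes of 8 Large White boars, 4 on a standard diet (control) and 4 on the same diet supplemented with methionine, choline, betaine, folate and the vitamins B6 and B12, fed from 1 to 10 months of age. The question was whether the supplement changed testis gene expression. Each testis was hybridised to 1 single-colour array, on 2 slides. On slide 1 lay 4 full brothers, m_9597 and m_9599 on the supplement and m_9598 and m_9600 as controls. On slide 2 lay the other boars, m_9499 and m_9527 on the supplement and m_9502 and m_9528 as controls. The methods name 3 litters, and how the boars of slide 2 divide into litters is not stated in the sources used here. Comparisons of the brothers with the other boars therefore set 1 litter against a mixed group and cannot tell litter from slide, while each slide holds both diets. Values below are log2 of the normalised median spot signal, and lists of 8 values run over the supplemented boars m_9597, m_9599, m_9499 and m_9527 and then the control boars m_9598, m_9600, m_9502 and m_9528. The median spot signal per array lay between 108 and 192.5 before normalisation, over a median local background of 22 to 27, and the number of arrays limits the precision. Set against the tissue label, PRM1, a protamine of spermatids, had a log2 signal of 18.42 to 18.80 over the boars, and INSL3, a hormone of Leydig cells, 18.50 to 18.74.

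The control boar m_9600 stood apart in these genes. Of the 66 RefSeq-named probes counted as present (signal over 25 and well above background in 2 or more of the 4 boars sharing a diet), 17 had their highest value in m_9600, or 25.8%, where m_9600 held the highest value in 9.54% of all 36982 present probes. At least 1 log2 unit above the mean of the 8 boars were 8 of these members in m_9600 (12.1%), against 0.487% of all present probes. No other boar had more than 2 such members. Probes of a gene were counted apart, and among the 8 were both probes of CCL2, of CXCL10 and of CCR1. Over all present probes m_9528 and m_9527 stood apart instead, with the highest value in 25.5% and 23.7% and the lowest in 26.6% and 23.2%. The counts over the members for diet are given below with and without m_9600, and most values of single probes with it only.

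Most of the set gave a measurable but dim signal. On a single array 53 to 65 of the 74 RefSeq-named probes were well above background, with a median over the boars of 77.7%, where the median for all probes was 78.5%. The supplemented boars had 55, 62, 53 and 53 such probes and the controls 63, 65, 53 and 60, so that the diets overlapped. Over all arrays, 46 RefSeq-named probes were well above background on each of the 8 (62.2%, against 71.1% of all probes). The T helper cell cytokines IL4, IL17A and IL21 were not well above background on any array. CXCL8, IFN-OMEGA-7, IL12B, IL13 and IL18R1 reached it on 1 or 2 arrays and did not count as present. Counting the probes that passed this on all 8 arrays by role, now with the 7 probes named only through the study's table included, there were 10 of 11 for CC chemokines and 9 of 11 for chemokine receptors, but 9 of 18 interleukin probes, 5 of 12 interleukin receptor probes and 1 of 5 interferon probes. The other roles had 5 of 5 for interferon receptors, 4 of 6 for CXC chemokines and 6 of 9 for TNF ligands. TNF receptors had 1 of 3 and TNF-induced proteins 1 of 1.

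The median log2 signal of the 66 present members was 6.68, and that of all present probes 7.93. Under 6, close to the background, lay 27 members (40.9%, against 22.4% of all), and at 10 or more lay 6 (9.09%, against 29.3%). The bright ones were TNFSF12, a TNF ligand also called TWEAK, with a mean of 13.36, CXCL16 with 13.02, TNFRSF1A, the main TNF receptor, with 11.75, IL18 with 11.46, IL6ST, the signalling chain shared by receptors of the IL6 family, with 11.00, and IL16 with 10.94. Binding differs between probes, so these figures describe the spots and do not order the genes by amount of RNA. Fold changes were taken without subtracting background and understate the change of dim probes. In bulk tissue, fewer cells of a type and less RNA per cell cannot be told apart.

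The median SD of the members over the 8 boars was 0.34, and that of all present probes 0.30, a ratio of 1.16, which ran over the alternatives from 0.836 in the boars outside the litter to 1.31 without m_9528, and was 1.28 in the brothers, 0.945 with normexp background correction and 1.02 without m_9600. An SD of 0.5 or more was found in 17 of the 66 (25.8%, against 16.9% of all). IL16, a chemoattractant for CD4 cells, had the largest, 1.69. Its values were 12.12, 12.39, 11.85 and 8.81 in the supplemented boars and 11.74, 9.57, 12.52 and 8.48 in the controls. It was low in m_9527, m_9528 and m_9600, boars of both diets and both slides, by a range of 4.03 log2 units. The remaining 9 of the 10 most variable probes were those of CXCL10, CCL2 (both probes), CXCL12, CCL21, CCL27, CCL20, CXCL2 and CXCR4, chemokines and a receptor.

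Repeated spots showed the spread within an array. For 5 members the probe was printed 5 times on each array. For TNFSF12 the 5 spots of an array had a median SD of 0.0876, and the boars an SD of 0.414, a ratio of 4.72. The ratio was 2.20 for CXCR6, 1.91 for CCL28 and 1.20 for TNFSF13, and 0.671 for TNFSF8, whose signal lay near the background, and its median over the 46 present probes of the array printed in this way was 1.87. These ratios set the mean of 5 spots in each boar against single spots, whose SD is larger than the error of such a mean.

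The diet comparison asked whether the supplement moved these signals. None of the 66 present RefSeq-named probes had a limma P under 0.05, where 1.86% of all present probes did. After adjustment over all present probes the count was 0 among the members, with 0.0% of all probes called. Of the 66, 32 were higher and 34 lower on the supplement. The median difference (supplemented minus control) was -0.01, and its size had a median of 0.16, against 0.17 over all present probes. Without m_9600, 37 of 61 were higher and 24 lower, where 17872 of 36424 present probes were higher, and the median difference was 0.08. At least 1.5-fold apart were 3 members (4.55%, against 5.16% of all). For 1 member, TNFSF8, every control lay above every supplemented boar (1.52%, against 1.13% of all probes). It was not well above background on any supplemented array, and the bound on its fold was under 1. Leaving out m_9600 gave 4 of 61 present members with a limma P under 0.05, where 3.27% of all probes had one; among them were CXCL10, CXCL2 and CXCR6, each higher on the supplement, and none passed adjustment. Without m_9502 the count was 3, while 16.7% of all probes were called, without m_9499 it was 2 (3.03%, against 2.05% of all probes), without m_9527 it was 1 (1.52%, against 1.18%), and without each other boar it was 0, against 0.909% to 1.92% of all probes. The 3 calls without m_9502 were TNF on 1 probe and CCR10, higher on the supplement, and CXCR4, lower. The calls without m_9499 were CXCL12, higher on the supplement, and IFNB1, and that without m_9527 was IFNB1. IFNB1 counted as present through the supplemented boars alone.

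Among CC chemokines, CCL2, which draws monocytes, gave the clearest case of a boar set apart. Its brighter probe read 7.91, 8.61, 8.16 and 8.28 on the supplement and 7.97, 10.36, 8.26 and 7.80 in the controls. The dimmer probe read 6.79, 7.35, 7.45 and 7.35, then 7.19, 9.32, 7.40 and 7.16. Both probes put m_9600 above the next boar by 1.75 and 1.88 log2 units, and the remaining boars of the diets overlapped. CCL21, a ligand of CCR7 made by lymphatic endothelium, read 8.39, 8.50, 8.84 and 10.21 against 7.72, 8.93, 8.02 and 8.41, with a single high boar, m_9527, on the supplement. Its difference of 0.72 ± 0.41 (SE) did not pass (limma adjusted P = 0.840), and was 0.12 among the brothers and 1.31 among the other boars. CCL27, a skin chemokine that binds CCR10, was the brightest of the CC chemokine probes named through RefSeq, with 10.37, 10.62, 9.69 and 10.06 against 9.54, 10.56, 10.03 and 8.60. The diets overlapped, and the difference was 0.50 ± 0.39 (limma adjusted P = 0.840), and 0.14 without the low control m_9528.

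Of the CXC chemokines, CXCL10, CXCL2 and CXCL8 were highest in m_9600, while CXCL12 and CXCL16 were highest in m_9597. CXCL10, an interferon-induced chemokine for T cells, read 7.51, 8.38, 8.26 and 7.16 against 7.18, 10.06, 6.97 and 7.07 on its brighter probe. With m_9600 the diet means were 7.83 and 7.82. The other 3 controls lay at or below 7.18, while the supplemented boars m_9599 and m_9499 lay above 8. CXCL2, a neutrophil chemokine, read 9.85, 9.91, 10.52 and 9.77 against 9.43, 10.72, 8.85 and 9.30, so that every supplemented boar exceeded every control but m_9600. CXCL8, also for neutrophils, was well above background in m_9600 only, at 6.35, where the other boars lay between 4.67 and 5.02.

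**Figure D1:**
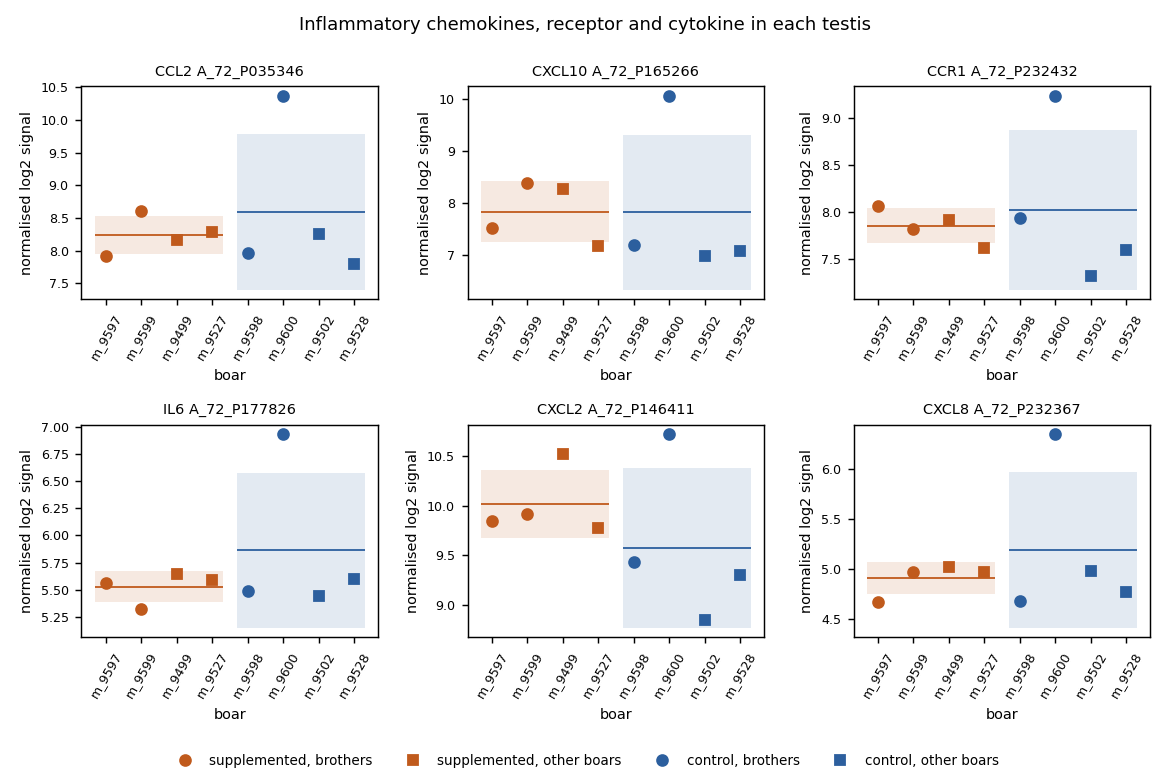
Normalised log2 signal (vertical axis) in each of the 8 boars (horizontal axis) for CCL2, CXCL10, CCR1, IL6, CXCL2 and CXCL8. Orange marks the supplemented and blue the control diet, circles the brothers and squares the other boars; lines are diet means and bands ± 1 SD. The control boar m_9600 is the highest point in every panel, at 10.36 for CCL2 and 10.06 for CXCL10. The panels are a selection, as CCR1, IL6 and CXCL8 were chosen after their values were seen. IL6 is shown on the more variable of its probes, and CXCL8 did not count as present. Of the 66 present members, 17 were highest in m_9600.

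CXCL12 guides cells that carry CXCR4, germline stem cells among them, and had the largest diet difference of the RefSeq-named members. It read 9.89, 8.76, 7.76 and 9.59 on the supplement and 7.90, 8.95, 8.01 and 8.06 in the controls. The supplemented boar m_9499 was the lowest of all, and the diets overlapped. The difference was 0.77 ± 0.44, or 1.71-fold (limma adjusted P = 0.840), with 0.90 among the brothers and 0.64 among the other boars. Over the alternatives it ran from 0.48, without m_9597, to 1.18, without m_9499, so that it depended on single boars. CXCL16, a ligand of CXCR6 and a scavenger receptor, was bright and even, between 12.39 and 13.27, with a diet difference of 0.07 ± 0.24.

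The chemokine receptors were lower on the supplement for 8 of 11 probes, none past the test, where 18669 of all 36982 present probes were lower; without m_9600 it was 4 of 10. CXCR4 read 10.09, 9.97, 9.20 and 9.22 on the supplement and 10.82, 9.72, 9.51 and 10.64 in the controls, a difference of -0.55 ± 0.34 (limma adjusted P = 0.840) with overlap. Its sign was thus opposite to that of its ligand CXCL12, and neither passed the test over all 8 boars. CXCR4 had a limma P under 0.05 without m_9502, where 16.7% of all probes had one. CXCL12 had one without m_9499, where 2.05% of all probes did, and neither passed adjustment. CCR10 had a difference of 0.27 ± 0.16 (limma adjusted P = 0.840). CCR1, a receptor of monocytes and macrophages for CCL3 and its kin, read 9.26 and 9.23 on its 2 probes in m_9600, and at most 8.05 and 8.07 in any other boar.

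Of the 5 interferon probes, all but that of IFN-DELTA-1 had a mean signal under 6. IFNB1, the classic antiviral interferon, counted as present through the supplemented boars alone, so that its choice was not independent of the diet, and had the lowest diet P of the RefSeq-named members, 0.0535 by limma (adjusted P = 0.840). It read 5.52, 5.40, 4.98 and 4.84 on the supplement, where 2 arrays were well above background, and 4.77, 4.87, 4.77 and 4.77 in the controls, where none was. Only a bound could be given, at least 1.14-fold higher on the supplement, taking for each control array the higher of the probe's own signal and the lowest signal of any probe well above background. The diets overlapped in m_9527 alone. IFNA1 differed by 0.02 ± 0.16 and IFN-DELTA-1, known from the pig trophoblast, by 0.09 ± 0.23. Of the receptor chains, IFNGR2 for interferon gamma was the brightest one named through RefSeq, between 9.39 and 10.17, with a diet difference of -0.26 ± 0.22. Both probes of IFNAR1, for interferons alpha and beta, differed by 0.06 ± 0.27 and 0.13 ± 0.21.

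In the TNF family, TNFSF12 read 13.63, 13.57, 13.67 and 13.16 on the supplement and 12.89, 12.65, 13.82 and 13.51 in the controls. Its difference was 0.29 ± 0.26 over all boars, but 0.83 among the brothers and -0.25 among the other boars. TNF had 2 bright probes and 1 near the background. The brighter read 8.97, 8.91, 9.22 and 9.29 against 8.36, 8.38, 9.39 and 8.87, a difference of 0.34 ± 0.24 (limma adjusted P = 0.840). The other bright probe differed by 0.19 ± 0.28, and the probe near the background by 0.04 ± 0.15. TNFRSF1A differed by 0.37 ± 0.26 and TNFRSF1B, the receptor of leukocytes, by 0.33 ± 0.23 and 0.14 ± 0.18 on its 2 probes. For TNFRSF1A the difference was 0.00 among the brothers and 0.74 among the other boars. TNFAIP6, a hyaluronan-binding protein induced by TNF, lay between 6.57 and 7.25 and differed by -0.11 ± 0.20.

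Of the interleukins, IL18, a cytokine of the IL1 family that macrophages release and that the testis also makes, read 11.72, 11.63, 10.83 and 10.99 on the supplement and 11.94, 11.72, 11.13 and 11.69 in the controls. The difference was -0.33 ± 0.25 (limma adjusted P = 0.840). With the slide as a block 2 members had a limma P under 0.05, IFNB1 and IL15 (3.03%, against 1.96% of all probes), and none passed adjustment; the limit given for IFNB1 above holds here too. IL16 differed by 0.72 ± 1.004, less than its own error. IL6, the acute phase cytokine, read 6.93 in m_9600 on the more variable of its 2 probes and 5.32 to 5.64 in the rest; on the other probe m_9600 was also the highest, at 6.16, by little. Among the interleukin receptor chains named through RefSeq, IL6ST lay between 10.32 and 11.39 and differed by -0.24 ± 0.23. Apart from IL6ST and IL6R, the others had a mean signal under 6. All 8 present ones were lower on the supplement, none past the test, where 18669 of all 36982 present probes were lower. Of the 8, IL13RA1, IL2RA and IL7R, named here after their values were seen, counted as present through the controls alone, so that the filter itself favoured a lower value. The count was 6 of 6 without m_9600, but 5 of 8 without m_9597 and 5 of 8 without m_9502.

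The comparison of the brothers with the other boars, with diet as a covariate, gave more. Between the brothers on slide 1 and the other boars on slide 2, 11 of the 66 present members had a limma P under 0.05 (16.7%), where 8.11% of all present probes did. Higher in the brothers were 5 of them (background 3.41%) and lower 6 (background 4.7%). After adjustment 0 members passed, with 0.0% of all probes called; the smallest adjusted P of a member was 0.450 by limma. The brothers did not overlap with the other boars for 10 members (15.2%, against 6.18% of all probes). Without m_9528 the count was 15 of 61 (24.6%), but 26.1% of all probes were then called, so that the share of members no longer exceeded that of the array. Without each other boar it was 9 to 13, where 4.21% to 9.06% of all probes were called.

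IL15, which sustains natural killer and memory T cells, was higher in the brothers. Its values in the brothers were 6.74 and 6.53 on the supplement and 7.48 and 7.10 as controls, and in the others 6.09 and 5.72, then 5.90 and 6.32. The brothers did not overlap with the others and exceeded them by 0.96 ± 0.19 (limma adjusted P = 0.450). IFNE, an interferon of reproductive epithelia, read 5.89, 5.79, 6.27 and 6.20 in the brothers and 5.32, 5.35, 5.36 and 5.46 in the others, again without overlap but close to the background. IL18 (0.59 ± 0.17), the B cell factor TNFSF13B (0.51 ± 0.14) and the T cell costimulator TNFSF4 (0.50 ± 0.17) were also higher in the brothers.

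CCL20, a chemokine for dendritic cells and lymphocytes, was the lowest in the brothers. It read 6.91, 6.42, 6.51 and 6.68 there and 7.29, 7.92, 8.09 and 7.25 in the others, a difference of -1.01 ± 0.24 (limma adjusted P = 0.529) with no overlap. TNF was lower in the brothers by -0.70 ± 0.16 and -0.54 ± 0.17 on its bright probes. Its values on the former were 8.48, 8.20, 8.18 and 8.16 against 8.91, 9.20, 9.09 and 8.61, which did not overlap. IFN-DELTA-1 (-0.58 ± 0.13) and the receptor chain IL6R (-0.51 ± 0.14) went the same way. So did CCL3L1 (-0.45 ± 0.17), which is named here after its value was seen.

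**Figure D2:**
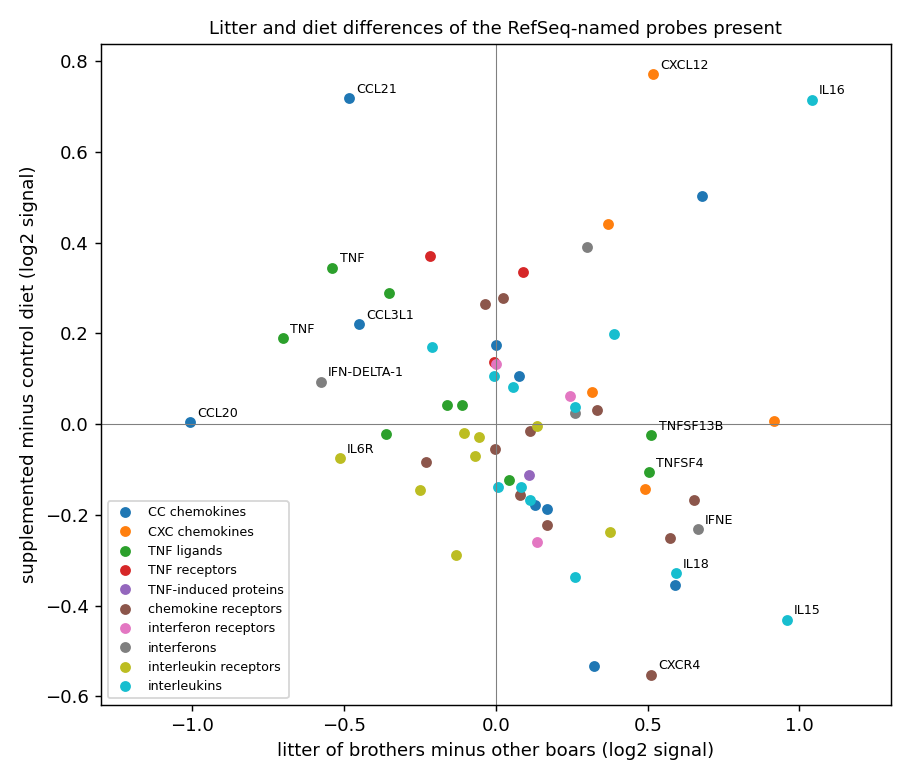
Difference between the litter of brothers and the other boars (horizontal axis, log2 signal) and between diets (vertical axis, supplemented minus control, log2 signal) for each of the 66 present probes named through RefSeq, coloured by role. Labelled are probes with a litter P under 0.05 or a large diet difference; IL15 lies at 0.96 and CCL20 at -1.01 on the litter axis, and CXCL12 at 0.77 on the diet axis.

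Whether the diet difference itself differed between the brothers and the mixed group of other boars, and so between the slides, was tested as an interaction. It gave a limma P under 0.05 for 2 of the 66 members, CCL26 and TNFSF12, where 2.0% of all probes had one, and none after adjustment. CCL26, a chemokine for eosinophils, read 7.91 and 7.87 on the supplement and 8.50 and 9.47 as controls in the brothers, and 8.40 and 8.86, then 7.78 and 8.04, in the others. The difference was thus -1.09 in the brothers and 0.72 in the others.

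The 7 probes named only through the study's table were chosen for differing between these same boars, so their values are a description and carry no test. CCL24, which draws eosinophils, read 9.20, 9.57, 10.003 and 9.04 on the supplement and 8.28, 8.11, 8.66 and 8.77 in the controls, 1.99-fold higher with no overlap. IL1R2, a decoy receptor that takes up IL1 without signalling, read 9.18, 9.10, 9.59 and 8.29 against 10.05, 10.11, 11.17 and 9.86, 2.40-fold lower on the supplement, also with no overlap. In the brothers and then in the other boars the differences were 1.19 and 0.81 for CCL24 and -0.95 and -1.58 for IL1R2. IL28RA, the private receptor chain of the lambda interferons, had 2 probes. The brighter read 12.42, 12.34, 12.75 and 12.45 against 12.70, 12.67, 12.85 and 12.98, and the other 10.87, 10.75, 10.55 and 11.12 against 11.31, 11.10, 11.63 and 12.25. Both were lower on the supplement, by -0.31 and -0.75, and on each the diets overlapped through a single supplemented boar, m_9499 on the brighter and m_9527 on the other.

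IL13RA2, a decoy receptor for IL13 known from testis, was even over the boars, from 10.79 to 11.33, and differed by -0.26. IL33, an alarm signal of damaged cells, and its receptor IL1RL1 were near the background. IL33 lay between 5.22 and 5.51 and differed by -0.16, with no overlap of the diets. Its probe was well above background on 1 supplemented and 4 control arrays, and its difference ran from -0.58 to -0.06 over the alternatives. IL1RL1 was well above background on all 4 control arrays and on no supplemented one, at least 1.18-fold higher in the controls. Of the 7 probes, CCL24 alone was higher on the supplement.

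The probes of these genes are 60 bases long and carry an EST or contig name, or for IL13RA2 only the name of the probe, and no place in the genome, so only bases 1 to 30 of the 4 that read the members with the largest diet differences are shown. None of the 4 holds the exact polyadenylation signal AATAAA in its 60 bases, and variants of that signal were not searched for. Their GC content is 40.0% for CCL24, 36.7% for IL1R2 and 35.0% and 40.0% for the brighter and the dimmer IL28RA probe.
CCL24: gggctaatgttcctatttctagcatcgttc
IL1R2: aaggatactgttcttttcctcagttgttta
IL28RA, brighter probe: ggtgttttaaactggaaatgtcacaaaatg
IL28RA, dimmer probe: gctgatgcagtcatcctttctcattaaaat

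**Figure D3:**
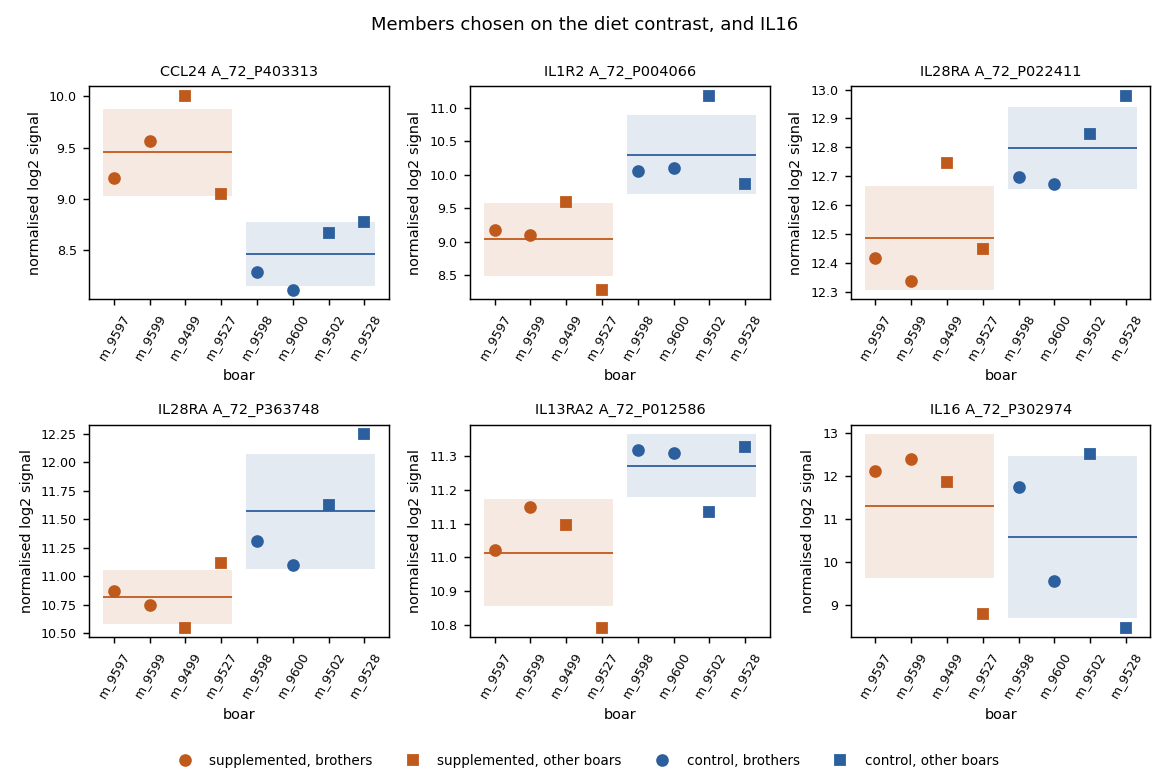
Normalised log2 signal (vertical axis) in each of the 8 boars (horizontal axis) for CCL24, IL1R2, both IL28RA probes and IL13RA2, which had been chosen on the diet contrast, and for IL16, which had not. Colours, symbols, lines and bands are as in the plot of inflammatory chemokines. CCL24 and IL1R2 separate the diets, and IL16 is low, at 8.48 to 9.57, in 3 boars of both diets.

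The genes that carry these signals inward were described beside the members. Of the JAK-STAT and SOCS list 10 of 21 genes were named on the array, with 18 present probes. Of the interferon-stimulated genes and IRFs 18 of 40 were named, with 26 present probes, of the toll-like receptor and NF-kappa B list 25 of 44, with 31, and of other cytokines and growth factors of blood cells 17 of 48, with 19. None of these present probes had a limma P under 0.05 for diet. The median diet differences of these lists, in that order, were -0.02, 0.08, -0.01 and 0.00, and that of all present probes was 0.00. Between the brothers and the other boars 0, 1, 1 and 1 probes were higher in the brothers at a limma P under 0.05. Lower were 1, 0, 0 and 1. Of all present probes, 3.41% were higher and 4.7% lower by the same test. The probes called in the lists were STAT3 (-0.49), EIF2AK2 (0.64), TLR4 (0.51), KIT (0.89) and XCR1 (-0.47), each on 1 probe. The other present probes of these genes gave 0.07 and 0.05 for STAT3, -0.15 and 0.00 for TLR4 and 0.54 for KIT, so that those of STAT3 and TLR4 did not go along. The brightest probes were those of JAK1 with 13.83 to 14.95, USP18 with 11.62 to 13.20, NFKBIA with 12.98 to 14.35 and KIT with 12.11 to 13.88. MYD88, TLR6 and CD40LG were not well above background on any array.

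The boar m_9600 was also high in the genes these signals induce or attract. It held the highest value in 11 of the 26 interferon-stimulated probes (42.3%) and 1 of the 18 JAK-STAT and SOCS probes (5.56%). Of the toll-like receptor and NF-kappa B probes it was 9 of 31 (29.0%). Of the probes for other cytokines and growth factors of blood cells it was 9 of 19 (47.4%). Over all present probes the share was 9.54%. MX1, an antiviral effector, read 12.24 in m_9600 and 9.37 to 11.61 in the rest on its brighter probe. SPP1 (osteopontin), a product of activated macrophages, read 11.58 against 6.34 to 8.15, and 8.18 against 5.78 to 6.27 on its second probe; it is named here after its values were seen.

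Markers of the cells that could bring these signals were read in each boar. Of 12 macrophage genes 5 were named, with 8 present probes, the brightest FCGR3A. Their summed linear signal was 3243, 3001, 3831 and 5022 on the supplement and 2538, 5948, 2690 and 2565 in the controls, highest in m_9600 and next in m_9527. The pan-leukocyte marker ITGB2 read 8.98 in m_9600 and 6.76 to 8.12 in the rest on its brighter probe, but 6.10 in m_9600 and 5.69 to 6.21 in the rest on the other. Of 15 T and NK cell genes 9 were named, with 9 of 13 probes present and CD247 the brightest; CD2 and CD3D were well above background on at most 1 array. The summed signal of that list was 8867, 12481, 8763 and 8249 against 10046, 10324, 10872 and 8824. That sum came mainly from CD247, with mean log2 signals of 12.47 and 10.60 on its probes, and GZMB, with 11.03. The other present probes of the list, those of CD3E, CD3G, CD4, CD8A and KLRK1, had means of at most 6.06. For neutrophils and mast cells only KIT, which germ cells also express, and MS4A2 were named, of 10, with KIT the brightest; summed, they gave 12858, 11328, 10761 and 9199 against 7828, 15827, 8350 and 4843. Of 8 endothelial genes 3 were named, PECAM1 the brightest, with 5010, 4434, 5021 and 8802 against 3865, 6288, 4637 and 3162. No red blood cell gene was named.

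The lists of resident testis cells gave no limma P under 0.05 for diet. Leydig cell genes (7 of 9 named) had a median diet difference of -0.16, Sertoli cell genes (9 of 11) 0.01, spermatogonial genes (3 of 8) 0.12, spermatid genes (5 of 9) 0.02 and peritubular cell genes (2 of 5) 0.28. In m_9600 lay the highest value of 5 of 8 macrophage probes, 4 of 4 spermatogonial, 2 of 3 neutrophil and mast cell, 2 of 4 peritubular, 4 of 9 T and NK cell, 2 of 5 endothelial, 2 of 12 Sertoli cell, 0 of 13 Leydig cell and 0 of 5 spermatid probes, so that its high values were not confined to the macrophage list. The boar was highest in 1 of 2 pan-leukocyte probes and in 0 of 2 B and plasma cell probes, a list with 2 of 8 genes named. The 2 probes of KIT count under both spermatogonia and mast cells. The part of the number of macrophages in the high CCL2, CXCL10 and CCR1 values of m_9600 was not tested.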

How the data were processed

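Gene expression was measured in 8 testes on Agilent single-colour pig arrays. Per the file headers the authors deposited Feature Extraction output, whose spot intensity is the median signal on a linear scale, with flags for spots well above background or positive and significant. A table of log2 values was deposited as well, which correlated with the values used here (r 0.999998 over probes, median difference per array 0.03) and was used as an alternative, with 56 of the 66 members. The study's columns of fold changes and P values were not used; of its table only gene names and probe sequences were read.

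Control spots were left out, log2 median signals were quantile-normalised, spots of a probe were averaged, and the 36982 probes counted as present were fitted with limma 3.58.1 (R 4.3.3). Tests were two-sided, and P values were adjusted by the Benjamini-Hochberg method over these probes. The steps were tested on simulated data. Tables were made in Python 3.11.15 and matplotlib 3.10.9. Of 3239 probes with a RefSeq accession, 2628 matched the gene table; probes of a gene were kept apart.

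Named members are those of the study's table and, among RefSeq-named probes, the 10 with the lowest diet P, the lowest litter P, the highest signal and the largest SD, the brightest of each role and those well above background on no array. Outside this rule, CCL26, CCL28, CCL3L1, CCR1, CXCL8, CXCR6, IFN-OMEGA-7, IFNA1, IFNAR1, IL2RA, IL6, IL7R, IL12A, IL12B, IL13, IL13RA1, IL18R1, TNFSF8 and TNFSF13 were chosen after their values were seen. Members and lists were chosen with earlier results of these data known. Alternatives were other signals, scalings, background correction and filters, the slide as a block, the brothers and the other boars alone, the authors' values, and leaving out each boar.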

Additional observations from a re-analysis of the deposited data

Results flagged for a closer look

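Each diet group of 4 boars was searched for a boar whose gap to the nearest other was nearly the group's whole range, above the critical value of Dixon's ratio, over 104 groups of named probes and lists, of which 10 had such a boar. Chance gives about 1 in 20 groups, or 5.2 here, but some probes were named for their large SD over the boars, the probes of CCL2, CXCL10, CXCL12 and IL16 among them, so this figure does not hold for the groups searched. The control boar m_9600 accounted for 5 of the 10.

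In m_9600 the dimmer CCL2 probe read 9.321 and the other controls at most 7.403. CXCL10 read 10.058 there against at most 7.175, and CXCL12 8.950 against at most 8.060. IFNB1 read 4.872 against at most 4.774, all 4 not well above background. The median of the neutrophil and mast cell list, relative to each probe's mean over the boars, was 0.724 against at most -0.099.

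Low values made up the rest. In the supplemented boar m_9597 the dimmer CCL2 probe read 6.792, where the others of its diet read at least 7.351. In m_9527 IL16 read 8.809 against at least 11.851. In the control boar m_9528 the brighter TNFRSF1B probe read 5.099 against at least 5.969. In m_9502 IL13RA2 read 11.134 against at least 11.310, and the median of the B and plasma cell list was -0.339 against at least 0.198.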

How the results depend on the processing

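No member passed adjustment for diet or litter by limma under any alternative run. The number of members with a diet P under 0.05, 0 in the analysis reported, was 2 with background-subtracted signals scaled to the 75th percentile (3.03%, against 2.76% of all probes), 1 without the filter on dim probes (1.35%, against 1.92%), 2 with the slide as a block (3.03%, against 1.96%), 6 within the litter of brothers (8.70%, against 6.21%) and 2 outside it (3.08%, against 0.946%), and 0 to 4 when a boar was left out. IFNB1, called in the first 4 of these settings, had counted as present through the supplemented boars alone. TNFSF8, the other call with background-subtracted signals, was lower on the supplement and had counted as present through the controls alone. The count was also 0 with the median signals scaled to the 75th percentile, normexp, probes well above background on all arrays and the authors' values. The median diet difference of the members was 0.0934 outside the litter, -0.0732 within it, -0.0733 with the background-subtracted signals, and -0.0508 to 0.0771 with a boar left out. The number with a litter P under 0.05 was 9 to 12 under the other settings, where 7.94% to 9.62% of all probes were called, and 9 to 15 with a boar left out, where 4.21% to 26.1% were. The median litter difference, 0.0990, was -0.0787 with the median signals scaled to the 75th percentile. That scaling moved the median of all present probes from 0.01 to -0.10. With the background-subtracted signals the median litter difference was 0.126, and with a boar left out 0.0244 to 0.121. The median level of members relative to all present probes, -1.24, was -0.942 with normexp and -1.65 with the background-subtracted signals. By the flag for positive and significant spots the median share of members detected was 93.9%. The causes were not tested.

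Single diet differences moved widely over the alternatives, from -0.87 to -0.24 for CXCR4 and -0.50 to -0.16 for IL18. They ran from 0.12 to 0.57 for the brightest TNF probe, 0.04 to 0.63 for the brighter TNFRSF1B probe and 0.00 to 0.74 for TNFRSF1A. The dimmer TNFRSF1B probe gave -0.13 in the brothers and 0.40 in the other boars. Some named members changed sign between the brothers and the other boars, such as TNFSF12 (0.83 and -0.25), IL16 (1.60 and -0.17) and CXCL2 (-0.19 and 1.07). Diets were assigned at random within litters per the study's methods, but the litters of the boars on slide 2 are not given in the sources used here, so no paired analysis or block by litter was run; the slide block separates only the brothers from the rest. Signal over background limits most interferons and most interleukin receptors, whose differences are understated.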

Other observations

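Some genes near these pathways gave values that varied widely between boars; they are named after their values were seen. MAVS, an adaptor for sensing viral RNA, read 8.07, 6.51, 7.88 and 6.21 on the supplement and 8.49, 8.09, 6.73 and 5.88 in the controls on its brighter probe, and 7.499, 7.26, 7.64 and 5.98, then 7.25, 6.98, 6.73 and 6.02, on the other. DDX58, a viral RNA sensor, read 9.77 in m_9599 and 6.39 to 7.60 in the rest on 1 probe, but 7.13 in m_9599 and 6.21 to 7.79 in the rest on the other. SOCS4 read 10.004 in m_9528 and 7.10 to 8.69 in the rest. IL12A read 6.41 in m_9599 and 5.02 to 5.60 in the rest, and was well above background on 3 arrays, 2 of them controls.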
